A study of Mus musculus with 12 samples.

Results

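The endoplasmic reticulum (ER) folding and degradation machinery was followed through 35 genes in the livers of mice that overexpressed ChREBP or GFP. The genes were proposed by name: chaperones and their helpers (10 genes), lectin chaperones (2), disulfide enzymes (7), sensors and transcription factors (4), degradation genes (8), and translocon and export coat genes (4). All 35 were found among the 19938 genes that the array rows name with a single symbol. Of these, 32 had 1 row, and for the other 3 the row with the highest mean over all arrays was used.

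The ER is where secreted and membrane proteins are folded, and hepatocytes, which make most plasma proteins, carry a dense ER. Chaperones hold nascent chains, oxidoreductases form their disulfide bonds, and chains that fail are moved back to the cytosol and degraded (ER-associated degradation, ERAD). The unfolded protein response (UPR) sets the capacity of this system through the sensors IRE1, which splices Xbp1 mRNA, ATF6, which is cleaved to a transcription factor, and PERK, which slows translation and acts through ATF4. BiP, encoded by Hspa5, and most of the chaperone genes are classical targets of ATF6 and spliced XBP1.

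The ChREBP group comprised 6 arrays of liver from male C57BL/6J mice given an adenovirus for ChREBP, the glucose-responsive transcription factor that Mlxipl encodes, and the GFP group comprised 6 arrays from such mice given a GFP adenovirus. The virus was injected into a tail vein, and livers came from mice in the fed state 3 weeks after that injection, with 8 weeks as the labelled age. All mice of both groups had received an adenovirus, so an uninjected liver was not part of the comparison, and which species and isoform of ChREBP was expressed is not stated in the labels. Mlxipl ranged from 10.74 to 10.96 on the log2 scale on the ChREBP arrays and from 9.07 to 9.61 on the GFP arrays (exact two-sided permutation test, p = 0.00216, the smallest that this design allows), and the array does not separate the vector transcript from that of the mouse.

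Values are log2 RMA expression values. Medians of the arrays ran from 5.96 to 6.05, and every difference is ChREBP minus GFP. A pair of arrays stood apart in transcripts of another tissue. On ChREBP 4 and ChREBP 5, all 15 measured markers of pancreatic acinar cells lay between 10.83 and 13.13, above the 4.07 to 8.74 of the other 10 arrays. Acinar cells are themselves rich in ER, so each of the 35 genes was also tested without these 2 arrays. Lower levels were present on 2 more arrays: on ChREBP 2 all 15 markers, and on ChREBP 6 10 of 15, were above every GFP array, with Cpb1 (carboxypeptidase B1) at 8.43 and 6.80 on these 2 arrays, against 4.23 to 4.56 on the GFP arrays. A further fit, chosen after the data were seen, left out all 4 and kept ChREBP 1 and ChREBP 3. Hepatocyte markers were highly expressed on every array, with array means of 11.97 to 12.16 in ChREBP livers and 12.29 to 12.37 in GFP livers, and 6 of 8 were lower in ChREBP livers. Markers of T and NK cells were higher for 7 of 9 genes, with array means of 6.00 to 6.57 in ChREBP livers and 5.43 to 5.79 in GFP livers. Of 11 Kupffer cell and macrophage markers, 5 were higher and 4 lower (2 lower without any one of GFP 1, GFP 2, GFP 3, ChREBP 1 or ChREBP 5). Ccr2 (1.08), Cd5l (0.83) and Cd68 (0.74) were among the higher markers, and Timd4 (-1.59), Marco and Vsig4 among the lower. Marco did not pass in 9 and Vsig4 in 10 of 24 alternative settings. The part of these shifts in the ER results was not tested, and in whole liver fewer cells of a type and less RNA per cell cannot be told apart.

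Transcripts of the folding and degradation machinery were lower in ChREBP livers as a group. Of the 35 genes, 29 were lower, 1 (Derl1) was higher and 5 (Dnajb9, Dnajc10, P4hb, Atf6 and Derl2) did not pass an adjusted p of 0.05 (limma with Benjamini-Hochberg adjustment over all genes). Among all 19938 genes, 27% passed by the same rule, 13.7% as lower and 13.3% as higher. The median difference was -0.46 over the 35 genes and -0.04 over all genes. Every ChREBP array lay below every GFP array for 23 of the 35, against 6.83% of all genes, and the reverse held for 0 of the 35, against 8.33% of all genes. The falls were mostly moderate: 8 genes were lower by at least 1.5-fold, against 1.6% of all genes, 0 were higher by that much, against 4.1% of all genes, and 2 (Hyou1 and Pdia5) by more than 2-fold.

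**Figure D1:**
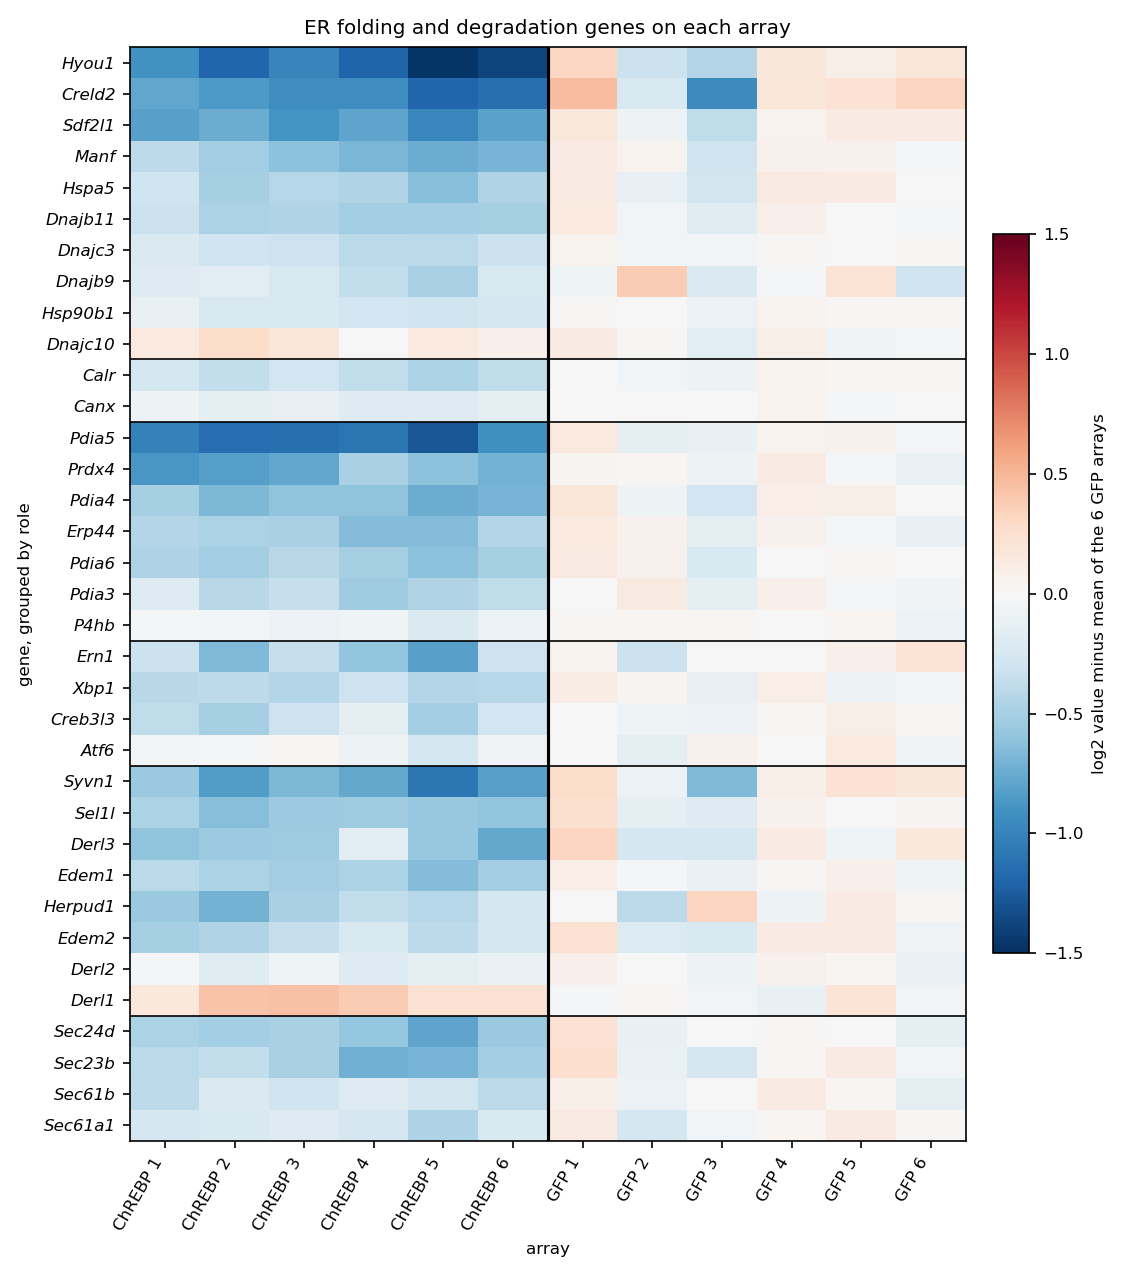
Each row is 1 of the 35 genes, grouped by role, and each column is 1 array, with the 6 ChREBP arrays left of the 6 GFP arrays. Colour gives the log2 value minus the mean of the 6 GFP arrays. Blue fills the ChREBP columns in nearly all rows, and Derl1 and Dnajc10 are the rows with a positive mean difference. GFP 3 is paler blue in several rows, with Creld2 and Syvn1 the strongest.

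The shift was also seen array by array. The mean over the 35 genes ranged from 9.66 on ChREBP 5 to 9.84 on ChREBP 1, and from 10.06 on GFP 3 to 10.34 on GFP 1, so the groups did not overlap. Within the GFP group, GFP 3 was the lowest array for 22 of the 35 genes and GFP 1 the highest for 22. Within the ChREBP group, ChREBP 5 was the lowest for 21 genes and ChREBP 1 the highest for 17. Deviations were thus shared among the genes, and the 35 genes are not independent readings. On ChREBP 4 and ChREBP 5, the arrays rich in acinar transcripts, 11 genes were lower than on all 4 other ChREBP arrays and 1 (Prdx4) was higher. Without these 2 arrays, 28 genes remained lower and the median difference was -0.42. Without ChREBP 2, ChREBP 4, ChREBP 5 and ChREBP 6, the median difference was -0.43, and 22 genes were lower with only 2 ChREBP arrays in the fit. Hspa5 (-0.36, adjusted p = 0.0520), Hsp90b1, Creld2, Canx, Ern1, Syvn1, Sec61a1 and Derl1 then did not pass, and all kept their direction.

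The promoters were read for the letters of known UPR elements, since these genes moved together. The ER stress response element (ERSE, the letters CCAAT, any 9 bases, then CCACG) combines an NF-Y site with a site for ATF6 and XBP1, and ERSE-II (ATTGG, any 1 base, then CCACG) is its compact form. The windows span 250 bases before to 50 after a start site in RefSeq annotation of GRCm38.p6, and 30 of the 35 genes had an entry. Hyou1, Manf, Atf6, Derl1 and Sec61a1 were without one. On either strand, the ERSE letters were present in 9 of the 30 genes (30%) and in 21 of 15614 genes overall (0.134%). The ERSE was defined on several of these promoters, so its frequency among them is background knowledge and not a result. Sequences are shown for genes at the high, middle and low end of the differences and for each element found, on the strand of the gene, with element letters in capitals.
Creld2: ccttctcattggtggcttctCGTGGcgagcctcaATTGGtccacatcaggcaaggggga
Syvn1: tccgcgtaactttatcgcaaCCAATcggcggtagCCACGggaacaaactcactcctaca
Hspa5: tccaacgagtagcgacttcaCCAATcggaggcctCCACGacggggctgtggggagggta
Canx: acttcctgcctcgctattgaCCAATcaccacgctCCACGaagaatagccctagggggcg
Hsp90b1: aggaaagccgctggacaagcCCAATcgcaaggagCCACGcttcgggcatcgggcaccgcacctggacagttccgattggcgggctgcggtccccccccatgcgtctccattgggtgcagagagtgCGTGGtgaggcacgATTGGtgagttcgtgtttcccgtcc
Derl3: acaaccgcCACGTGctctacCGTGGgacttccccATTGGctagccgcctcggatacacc
Herpud1: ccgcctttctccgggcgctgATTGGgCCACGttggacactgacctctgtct
Sec24d: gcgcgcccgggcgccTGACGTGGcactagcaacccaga
These stretches lie at chr15:88819500-88819558 (+ strand), chr19:6046512-6046570 (+ strand), chr2:34772005-34772063 (+ strand), chr11:50325780-50325838 (- strand), chr10:86705513-86705676 (- strand), chr10:75893222-75893280 (+ strand), chr8:94386357-94386407 (+ strand) and chr3:123267455-123267492 (+ strand). In Creld2 and Derl3 the ERSE reads on the opposite strand, as CGTGG and ATTGG. Hsp90b1 holds 2 copies in opposite orientation. The Derl3 stretch also holds the E-box CACGTG, the core letters shared by many helix-loop-helix factors. Herpud1 holds ERSE-II, and Sec24d holds the XBP1 element TGACGTGG, called UPRE.

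All 9 genes with ERSE letters were lower in ChREBP livers, from -0.97 for Creld2 to -0.14 for Canx. So were 17 of the 21 genes with a promoter entry and without ERSE letters. The median difference was -0.46 with the letters and -0.47 without them, nearly the same value. The genes without ERSE letters include Dnajb11, Herpud1 and Sec24d, which hold ERSE-II or UPRE letters. This split therefore does not set genes with a UPR element against genes without one. ERSE-II letters were present in Dnajb11 and Herpud1 (2 of 30, 6.67%, against 0.0576% of all genes) and UPRE letters in Sec24d (1 of 30, 3.33%, against 0.916%). As for the ERSE, these shares are background knowledge and not a result. The E-box CACGTG occurred in Calr, Derl3, Dnajb9 and Prdx4 (13.3%, against 9.5% of all genes). A match of letters is a description and does not show binding.

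Among the chaperones, BiP and its partners were lower, and the largest falls were in cofactors. Hspa5, the Hsp70 of the ER, measured 11.61, 11.80 and 11.95 (lowest, median and highest) on the ChREBP arrays, against 11.98, 12.31 and 12.39 on the GFP arrays. The highest ChREBP array was just below the lowest GFP array, and the difference was -0.46 (SE 0.08, adjusted p = 0.000469). Hyou1, a large Hsp70 relative that exchanges nucleotide on BiP, measured 8.27, 8.54 and 8.83 in ChREBP livers, against 9.30, 9.87 and 10.05 in GFP livers. The groups were well apart, and Hyou1 was 2.27-fold lower, the largest fall of the 35 (-1.19, SE 0.13, adjusted p = 1.61e-05). Hsp90b1, the ER Hsp90, was lower by -0.24, to a mean of 12.58 ± 0.07 in ChREBP livers, against 12.82 ± 0.05 in GFP livers (SD, n = 6 each), although the groups did not overlap (adjusted p = 0.000951).

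Cofactors of BiP and small ER proteins followed. Sdf2l1, which works with BiP and DnaJ proteins, measured 7.93, 8.11 and 8.17 on the ChREBP arrays, against 8.53, 8.99 and 9.07 on the GFP arrays. No array of one group reached the other, and the difference was -0.84 (SE 0.08, adjusted p = 5.62e-06). Manf, a secreted ER stress protein that binds BiP, was lower by -0.61 without overlap (adjusted p = 4.87e-05). Creld2, an ER-stress-inducible protein with disulfide isomerase-like activity, measured 8.42, 8.67 and 8.83 in ChREBP livers, against 8.65, 9.81 and 10.07 in GFP livers. GFP 3, at 8.65, lay within the ChREBP range and the other 5 GFP arrays above it, and the difference was -0.97 (SE 0.19, adjusted p = 0.0019).

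Of the 4 DnaJ cochaperones, which hand substrates to BiP and start its ATP cycle, 2 were lower. Dnajb11 was lower by -0.46 (adjusted p = 3.38e-05) and Dnajc3 by -0.33 (adjusted p = 7.02e-05), both without overlap. Dnajb9, which directs BiP to degradation substrates and restrains IRE1, measured 9.40, 9.64 and 9.71 in ChREBP livers, against 9.58, 9.84 and 10.27 in GFP livers. These ranges overlapped, and the difference of -0.28 did not pass (adjusted p = 0.0613). Dnajc10, a reductase for degradation substrates, averaged 9.17 ± 0.09 in ChREBP livers and 9.03 ± 0.10 in GFP livers (SD, n = 6 each), and the difference of 0.14 did not pass (adjusted p = 0.0925). Calls of both genes changed under some settings, given in the closing section.

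**Figure D2:**
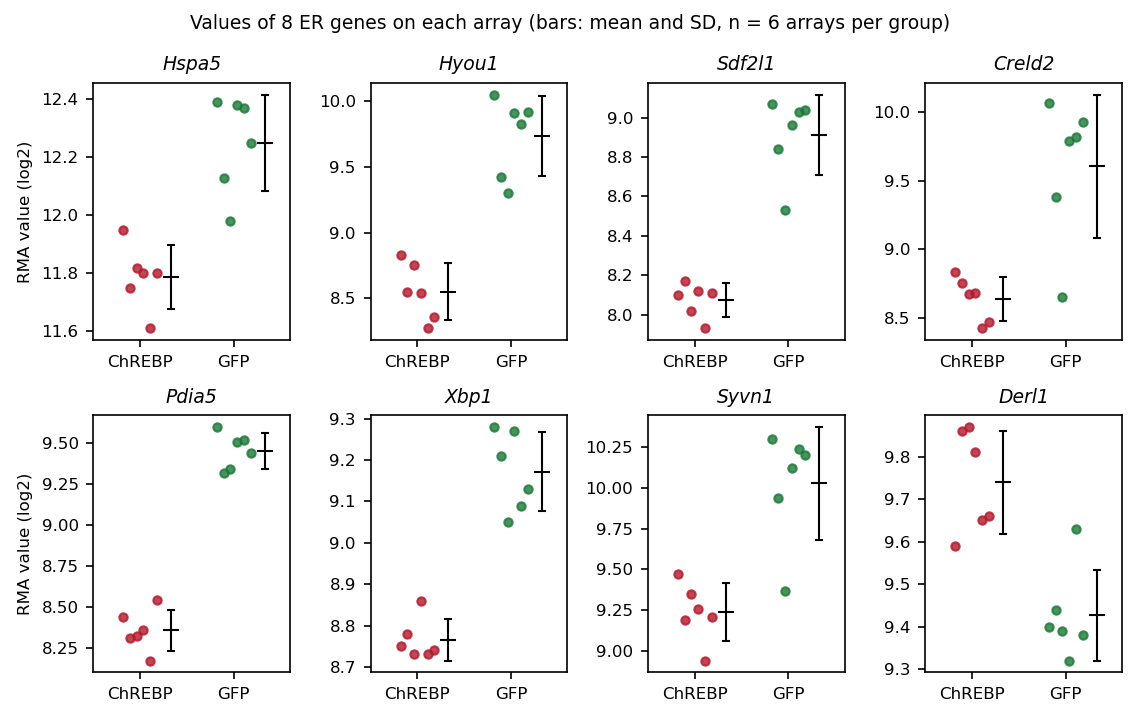
Points are the RMA values (log2) of 8 genes on each array, ChREBP in red left of GFP in green, and bars give mean and SD (n = 6 arrays per group). Hspa5, Hyou1, Sdf2l1, Pdia5 and Xbp1 show no overlap, Creld2 and Syvn1 overlap through GFP 3, and Derl1 is higher in ChREBP livers. The vertical axes differ between panels and do not start at 0.

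The lectin chaperones, which bind monoglucosylated N-glycans, were both lower by small amounts. Calr averaged 11.41 ± 0.08 in ChREBP livers and 11.77 ± 0.05 in GFP livers (adjusted p = 5.17e-05). Canx, the membrane-bound partner, measured 12.19, 12.24 and 12.31 in ChREBP livers, against 12.36, 12.37 and 12.43 in GFP livers. The groups did not overlap, but the difference was only -0.14 (SE 0.04, adjusted p = 0.0104). It did not pass without ChREBP 4 and ChREBP 5 (-0.12, adjusted p = 0.0540).

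Disulfide enzymes were lower in 6 of 7 cases, all 6 without overlap. Pdia5, a protein disulfide isomerase, measured 8.17, 8.34 and 8.54 on the ChREBP arrays, against 9.32, 9.48 and 9.60 on the GFP arrays. This wide gap gave the smallest adjusted p of the 35 genes (-1.10, SE 0.07, adjusted p = 4.67e-08), a 2.14-fold fall. Prdx4, the ER peroxiredoxin that uses peroxide to oxidise isomerases, measured 9.51, 9.63 and 9.90 in ChREBP livers, against 10.28, 10.38 and 10.51 in GFP livers, and was lower by -0.72 (SE 0.07, adjusted p = 2.74e-06). Its 2 highest ChREBP arrays were ChREBP 4 and ChREBP 5, and without them the difference was -0.80. Pdia4 (-0.64), Erp44 (-0.53), Pdia6 (-0.50) and Pdia3 (-0.39) were lower, with adjusted p between 2.04e-05 and 0.00025. A second row of Pdia4, with lower values, gave -0.44, a fall of under 1.5-fold. Erp44 retains unassembled proteins and client enzymes in the early secretory pathway, and Pdia3 works with the lectin chaperones. P4hb, the archetypal isomerase, averaged 11.87 ± 0.07 in ChREBP livers and 11.96 ± 0.04 in GFP livers and did not pass (-0.09, adjusted p = 0.164).

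Of the 4 sensors and transcription factors, 3 were lower. Xbp1 measured 8.73, 8.74 and 8.86 on the ChREBP arrays, against 9.05, 9.17 and 9.28 on the GFP arrays. The groups did not overlap, and the difference was -0.41 (SE 0.05, adjusted p = 3.80e-05). The row does not separate spliced from unspliced Xbp1, so it gives no measure of IRE1 activity. Ern1, which encodes IRE1 alpha, measured 7.42, 7.77 and 7.93 in ChREBP livers, against 7.92, 8.26 and 8.44 in GFP livers, touching ranges with a difference of -0.51 (SE 0.10, adjusted p = 0.00193). Creb3l3, a liver-enriched factor cleaved from the ER membrane, was lower by -0.35 without overlap (adjusted p = 0.000945). Atf6 averaged 9.54 ± 0.10 in ChREBP livers and 9.61 ± 0.09 in GFP livers (adjusted p = 0.394).

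In the degradation group, 6 of 8 genes were lower. Syvn1 encodes the ubiquitin ligase HRD1 and Sel1l its partner. Syvn1 measured 8.94, 9.23 and 9.47 in ChREBP livers, against 9.37, 10.16 and 10.30 in GFP livers. GFP 3, at 9.37, fell inside the ChREBP range, and the difference was -0.79 (SE 0.14, adjusted p = 0.000782). Sel1l was lower by -0.56 (adjusted p = 2.12e-05) and the mannose-trimming factors Edem1 (-0.51, adjusted p = 4.68e-06) and Edem2 (-0.36, adjusted p = 0.0047) likewise, all 3 without overlap, in Edem2 by under 0.01. Herpud1, a membrane protein of the HRD1 complex, was lower by -0.47 with overlapping groups (adjusted p = 0.00403).

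Of the 3 derlins, membrane proteins of the retrotranslocation step, 1 was higher, 1 lower and 1 did not pass. Derl1 measured 9.59, 9.74 and 9.87 in ChREBP livers, against 9.32, 9.40 and 9.63 in GFP livers. ChREBP 1 was the 1 ChREBP array below the highest GFP array, and Derl1 was the 1 gene of the 35 that was higher (0.31, SE 0.07, adjusted p = 0.00262). Derl2 averaged 10.60 ± 0.07 in ChREBP livers and 10.72 ± 0.08 in GFP livers and did not pass (adjusted p = 0.086). Derl3, the derlin most abundant in secretory tissues such as pancreas, measured 6.40, 6.61 and 7.00 in ChREBP livers, against 6.90, 7.20 and 7.49 in GFP livers. The 7.00 came from ChREBP 4, and the difference was -0.53 (adjusted p = 0.0033), or -0.61 without ChREBP 4 and ChREBP 5.

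The translocon and export coat genes were all lower. Sec61a1 (-0.27, adjusted p = 0.0101) and Sec61b (-0.30, adjusted p = 0.00151) encode subunits of the channel through which chains enter the ER. The 3 rows of Sec61b gave -0.30, -0.32 and -0.33. Sec23b (-0.53, adjusted p = 0.000369) and Sec24d (-0.57, adjusted p = 3.08e-05) encode subunits of the COPII coat that carries cargo out. Sec24d measured 7.96, 8.21 and 8.28 on the ChREBP arrays, against 8.61, 8.75 and 8.97 on the GFP arrays, with no array of one group reaching the other.

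**Figure D3:**
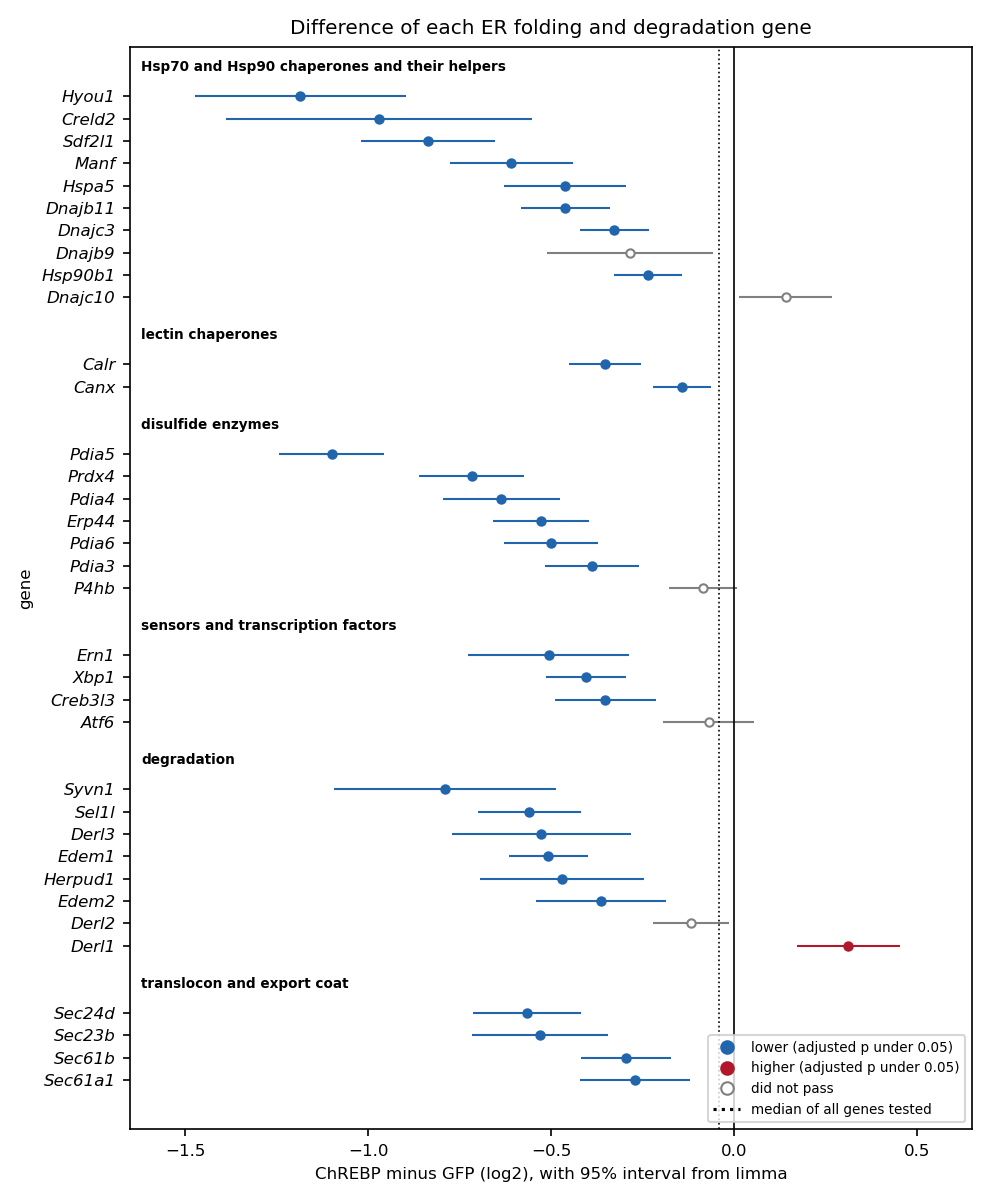
Points give the ChREBP minus GFP difference (log2) of each gene with its 95% interval, grouped by role. Filled blue points passed as lower, filled red as higher, open grey did not pass. The dotted line marks the median of all genes, -0.04. Hyou1, Pdia5 and Creld2 lie farthest to the left.

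Other genes of the same pathway, taken from 6 lists that leave out the 35, had a smaller median difference. Of 122 measured, 57 (46.72%) were lower and 7 were higher, with a median difference of -0.14, again against 13.7% lower and 13.3% higher among all genes. Translocon and signal peptidase genes were lower in 14 of 20 cases and the other 6 did not pass, and the 4 with the smallest p were Spcs3 (-0.43), a signal peptidase subunit, Sec63 (-0.41), Tram1 (-0.34) and Sec62 (-0.27). Without GFP 4, 10 of these 20 were lower, and without ChREBP 4 and ChREBP 5, 9 were lower. Other folding enzymes were lower in 16 of 30, including the cyclophilin Ppib (-0.43), Qsox1 (-0.48), the oxidase Ero1b (-0.59) and the BiP exchange factor Sil1 (-0.44), and Tor1a was higher (0.30). Subunits of the oligosaccharyltransferase, which adds N-glycans, were lower in 7 of 12, including Rpn1 (-0.57) and Magt1 (-0.47), and Ost4 (0.39) and Tusc3 (0.58) were higher. Tusc3 and Magt1 encode alternative subunits of this complex.

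The counts of the remaining machinery lists also changed when single arrays were left out. ERAD genes were lower in 11 of 28 (7 without GFP 1, 6 without ChREBP 4 and ChREBP 5). By p, the first were Os9 (-0.59), a lectin of the HRD1 complex, Selenos (-0.36), Erlin1 (-0.41) and Rnf5 (-0.23), and 3 were higher (Trim13, 0.52, Erlin2, 0.24, and Jkamp, 0.21), although each of these 3 failed to pass in some alternative settings and 1 was left without GFP 2, without GFP 6 or without ChREBP 3. COPII and retrieval genes were lower in 8 of 22 (5 without GFP 1, without GFP 5 or without ChREBP 5), and those with the smallest p were Mia3 (-0.44), Sec16b (-0.51), Preb (-0.33) and Lman2 (-0.25). Of 10 other UPR sensors and ER-tethered factors, Wfs1 was lower (-0.30) and Creb3l1 higher (0.19). Creb3l1 did not pass without GFP 5 (adjusted p = 0.0525), with the replicate block, or when both ChREBP 4 and ChREBP 5 were left out (adjusted p = 0.102). Pdia2, a disulfide isomerase of the pancreas, ranged from 4.63 to 9.04 on the ChREBP arrays and from 4.68 to 4.92 on the GFP arrays, and did not pass (adjusted p = 0.205).

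Genes placed downstream of PERK were on the higher side as a list, but Asns was not. In the PERK and amino acid stress list, 7 of 13 were higher, against 13.3% of all genes, and the other 6 did not pass. The median difference was 0.25. Without ChREBP 2, ChREBP 4, ChREBP 5 and ChREBP 6, 5 were higher and 1 (Asns) was lower. The 4 with the smallest p were Slc7a11 (3.13), the cystine importer, Vldlr (1.49), a lipoprotein receptor, Sesn2 (0.62), a sestrin, and Ddit3 (0.43), which encodes CHOP. Atf3 (0.65), Trib3 (0.25) and Nupr1 (1.64) also passed. Several of these answer to other regulators too, such as Nrf2 for Slc7a11 and PPAR factors for Vldlr. Atf4 itself averaged 8.91 in ChREBP livers and 8.89 in GFP livers (adjusted p = 0.889). Asns, a target of ATF4, ranged from 6.23 to 8.11 in ChREBP livers and from 7.36 to 8.93 in GFP livers (adjusted p = 0.104). Asns passed as lower in 4 of 24 alternative settings, among them without ChREBP 4 and ChREBP 5 (-1.22, adjusted p = 0.00859). The other settings were without ChREBP 4 alone, weighted arrays and the replicate block.

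Chaperones of other compartments had medians closer to that of all genes (-0.04) than to that of the 35 genes (-0.46). The other ERAD genes (-0.12) and the COPII and retrieval genes (-0.13) had medians of similar size. Shares of lower genes were 30% for cytosolic and 50% for mitochondrial genes, against 13.7% of all genes and 46.72% of the other ER machinery. Cytosolic chaperones were lower in 6 of 20 cases (Hsph1, -1.03, Stip1, -0.57, and Dnaja1, -0.23, among them) and higher in 1 (Bag3, 0.23), with a median of -0.10, and 3 were lower without GFP 6 and ChREBP 6. Mitochondrial chaperones and proteases were lower in 6 of 12 (3 without GFP 4, and 3 without ChREBP 4 and ChREBP 5), with the smallest p for Clpx (-0.40), with Lonp1 (0.24) higher, and a median of -0.09. Constitutive proteasome subunits were near the background, with 5 of 31 lower (Psmc6, -0.21, was the first by p, and 3 were lower without GFP 1, without ChREBP 3 or without ChREBP 6, and 2 without ChREBP 4 and ChREBP 5), Psmd8 (0.39) higher, and a median of -0.03. These medians describe the lists, and no test of one list against another was made.

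The cargo of the pathway was lower, beside the fall of hepatocyte markers given above. Of 22 measured secreted plasma proteins, 17 were lower, against 13.7% of all genes, and 5 did not pass, with a median of -0.21. The number lower ranged from 13 (with the replicate block) to 19 over the 24 alternative settings. It was 11 without ChREBP 2, ChREBP 4, ChREBP 5 and ChREBP 6. The 4 with the smallest p were Itih1 (-0.74), Plg (-0.49), Fga (-0.60) and Vtn (-0.39), which encode an inter-alpha-trypsin inhibitor chain, plasminogen, a fibrinogen chain and vitronectin. This list shares Alb, Apoa1, Ttr and Trf with the 8 hepatocyte markers, whose median was -0.23. The 7 measured targets of Creb3l3 were mixed. Apoa4 (1.58), Cidec (2.05) and Fgf21 (0.95) were higher, against 13.3% of all genes. The acute phase genes Crp (-0.60) and Apcs (-0.97) were lower, against 13.7% of all genes. Whether these 5 genes followed Creb3l3 was not tested. Plasma cells, another ER-rich cell type, gave no common shift: of 9 plasma cell and B cell markers, Sdc1 was lower (-0.21) and Prdm1 higher (0.25), with a median of 0.01, and Prdm1 did not pass in 10 of 24 alternative settings, among them leaving out any one of 8 single arrays.

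**Figure D4:**
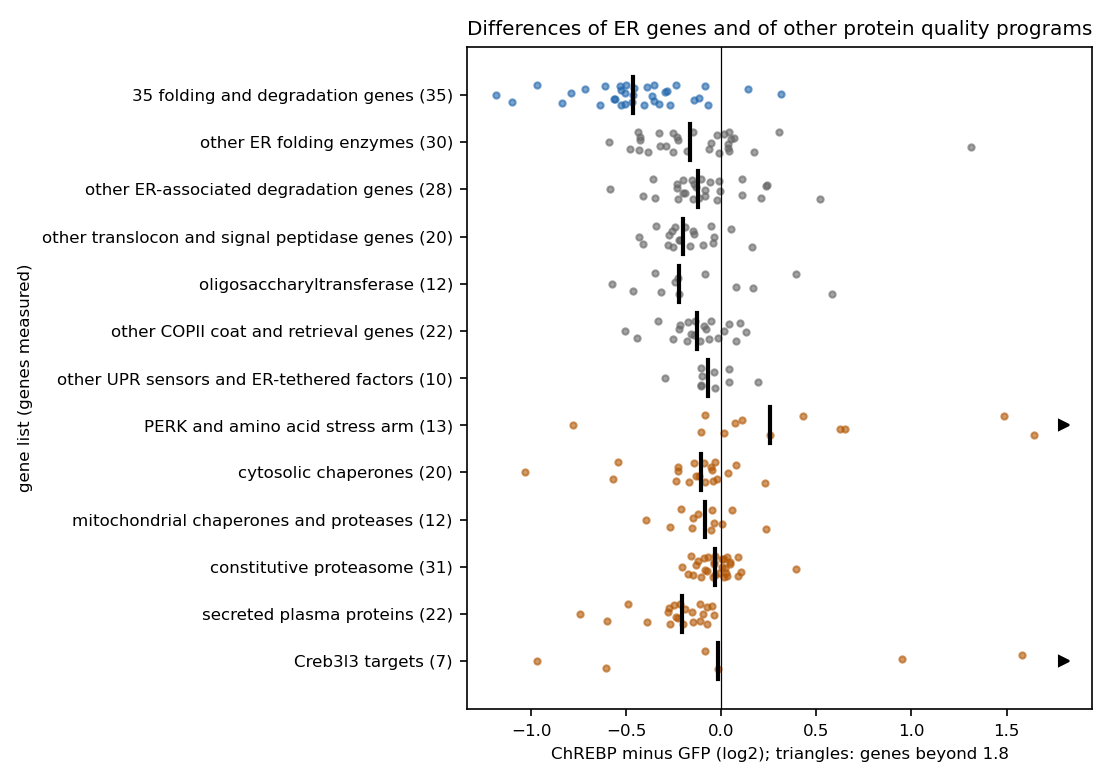
Each point is the ChREBP minus GFP difference (log2) of 1 gene, black bars are list medians, and triangles stand for genes beyond 1.8. Blue marks the 35 folding and degradation genes (median -0.46), grey other ER machinery and orange the comparison lists. The PERK list has its median at 0.25, to the right of all other lists.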

How the data were processed

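The authors had hybridised amplified liver RNA to Affymetrix mouse gene arrays, and the log2 values they deposited were used as given. RMA and Partek, each with no version, are named in the submitters' processing notes. Groups were compared by limma (version 3.58.1, R 4.3.3) through lmFit followed by eBayes, two-sided and without covariates. Benjamini-Hochberg adjustment ran over 19938 genes, dim ones included, and the threshold was an adjusted p of 0.05. Genes past a fold of 1.5 at an unadjusted p of 0.05 were counted too. The study gives a fold of 1.5 and a p of 0.05 for its Phf2 arrays and does not state an adjustment. Of 35556 rows, 21789 carried 1 symbol, 1621 several and 12146 none in the annotation used here, and 21698 single-symbol rows were matched by Entrez ID to RefSeq names of GRCm38.p6. RMA removes differences in overall signal between arrays, so a change shared by all transcripts could not be seen. No scan dates were used, so no batch was tested. Precision is limited by the number of arrays.

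The 35 genes, all lists and the named-gene rule (every one of the 35, Mlxipl, and up to 4 genes per list with the smallest p among those that passed, plus those that complete a count of 5 or fewer) were chosen with earlier results of these data known. Atf4, Asns, Pdia2 and the other genes named outside this rule were chosen after their values were seen. The lists got counts and medians and no test. The labels call the arrays biological replicates. On simulated data with 200 of 19938 genes changed, the procedure recovered 60% of genes changed 1.25-fold and 90% of those changed 1.5-fold, with 3.33% false calls. The simulated noise was independent between genes, whereas deviations were shared among the 35 genes on the real arrays. Many more genes also passed on the real arrays, so these rates need not hold there. Alternatives were normalization, a filter on dim genes, the choice of row, the moderation, weighted arrays, the analysis of variance named in the methods, a replicate block, each array left out, 2 pairs of arrays left out and, chosen after the data were seen, 4 ChREBP arrays left out together. Protein sequences were not analysed here.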

Additional observations from a re-analysis of the deposited data

Results flagged for a closer look

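In 7 of 70 groups of 6 arrays (35 genes in 2 groups), 1 array lay far from the other 5, where chance gives about 3.5. ChREBP 5 was the low array for P4hb (11.74, the others 11.87 to 11.93), Sec61a1 (10.16, the others 10.37 to 10.43) and Sec24d (7.96, the others 8.17 to 8.28). It is also the lowest ChREBP array for 21 of the 35 genes and 1 of the 2 arrays rich in acinar transcripts. In the same group, ChREBP 1 was high for Dnajb11 (10.68, the others 10.48 to 10.55). In the GFP group, GFP 3 was low for Manf (10.33, the others 10.62 to 10.76), GFP 4 was high for Canx (12.43, the others 12.36 to 12.38) and GFP 6 was low for P4hb (11.87, the others 11.95 to 11.99). The gaps for Canx and P4hb span under 0.15 on the log2 scale.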

How the results depend on the processing

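Across 24 alternatives, 12 of which left out 1 array, no difference changed direction, and 32 of the 35 genes kept their call in every one. Of the 29 lower genes, 28 stayed lower in all 24. The number lower ranged from 28 to 30 and the median difference from -0.50 to -0.42. Leaving out 1 array in turn gave 29 to 30 lower genes, 1 to 2 higher genes, 7 to 10 past a fold of 1.5, and 4656 to 5632 calls among all genes. The second higher gene was Dnajc10, without ChREBP 4 (0.17, adjusted p = 0.0491, range over alternatives 0.0491 to 0.187). Canx did not pass with the replicate block (adjusted p = 0.0624) or without ChREBP 4 and ChREBP 5 (adjusted p = 0.0540). Median centring brought Dnajb9 among the lower genes (-0.30, adjusted p = 0.0456), as did leaving out GFP 3 (-0.33, adjusted p = 0.0431), GFP 6 (-0.34, adjusted p = 0.0219) or both arrays numbered 6 (-0.35, adjusted p = 0.0323), with adjusted p up to 0.197 elsewhere. Nupr1 did not pass with the methods' analysis of variance (adjusted p = 0.053). The cause of these changes was not tested. Other machinery genes called lower ranged from 41 (without ChREBP 4 and ChREBP 5) to 59. Without ChREBP 2, ChREBP 4, ChREBP 5 and ChREBP 6, a choice made after the data were seen that leaves 2 ChREBP arrays, 22 of the 35 were lower and 0 higher, 3441 of all genes passed (1597 lower), and 24 other machinery genes were lower and 3 higher. Arrays of the same replicate number showed little shared deviation (correlations -0.06 to 0.25, 1 of 6 over 0.1). The highest was that of the arrays numbered 6, and these 6 correlations cannot exclude a pairing by number. With the number as a replicate block, 28 of the 35 were lower, 1 was higher, and 4439 of all genes passed, against 5375 without it. Small differences are limited by the arrays' number, and no detection calls were used, so genes of low signal rest on values nearer the background. Of the 35, Derl3 had the lowest mean (6.90), which lay above the median of gene means (6.34).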

Other observations

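Outside the 35 genes, 12 tested genes with a RefSeq promoter held the ERSE letters. Of these 12, 3 were lower in ChREBP livers and 1 was higher, against 13.7% and 13.3% of all genes. With so few genes, these counts are not read as a result about the ERSE. The 3 lower genes were Ero1b (-0.59, adjusted p = 5.1e-05), an ER oxidase, Alg12 (-0.24, adjusted p = 0.0191), a mannosyltransferase of N-glycan assembly, and Olfr59 (-0.20, adjusted p = 0.0354). Olfr59, an olfactory receptor, was at a low level (means 4.25 in ChREBP livers and 4.45 in GFP livers). Spats2l was higher (0.45, adjusted p = 0.000403), with every ChREBP array above every GFP array, and 8 did not pass. These include Acacb (0.19, adjusted p = 0.0781), an acetyl-CoA carboxylase, and Calr4 (-0.09, adjusted p = 0.324), a relative of Calr.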
